A study of Mus musculus with 48 samples.

Results

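Hippocampal microglia of juvenile mice were compared 2 h after whole-brain irradiation with those of sham animals, and 12 of the 48 libraries of the study belong to this comparison. They are 6 sham and 6 irradiated libraries, chosen by treatment and time point as labelled, and every gene of the table enters. All animals were C57BL/6 mice. The irradiated animals received 8 Gy to the whole brain in 1 fraction on postnatal day 21 from an X-RAD320 unit, and the sham animals received none. Each library comes from the hippocampus of 1 animal, digested mildly with enzymes and sorted by flow cytometry for Cx3cr1, with total RNA made into libraries with the QIAseq FX single cell RNA kit. The labels give no sex. The other 36 libraries are sham and irradiated animals at 6 h, 1 day and 1 week, each time with its own sham group.

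Microglia are the resident macrophages of the brain. In the healthy brain they hold a program of surface receptors and transcription factors that depends on TGF-beta and on factors such as PU.1, Sall1 and Mef2c, and they survey synapses and blood vessels. Double-strand breaks activate the kinase ATM, which stabilises p53 and can also switch on NF-kB, the family of dimers that is held in the cytoplasm by IkB proteins and that drives adhesion molecules, cytokines and its own inhibitors. Both arms act within hours of the damage.

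Reads on genes ran from 1451290 to 2277026 in the sham and from 395761 to 2551975 in the irradiated libraries, and irradiated library 2 was the shallow one. Mitochondrially encoded genes took 3.05% to 9.34% of the reads in sham and 6.14% to 14.6% in irradiated libraries, nearly all from the 16S ribosomal RNA mt-Rnr2. In a principal component analysis of the 12 libraries the first component, with 16.8% of the variance, put all sham libraries at -13 and below and all irradiated libraries at 10.9 and above. The second component, with 14.8%, did not follow treatment. On it libraries 1 and 2 of both arms lay at 23.2 and above, and libraries 4, 5 and 6 of the sham arm with 5 and 6 of the irradiated arm lay at -16.4 and below. The third, with 10.6%, set irradiated library 2 apart at -48.6. The cells carried the markers of microglia: the 10 marker genes summed to 34400 to 45900 reads per 1000000 reads on genes (RPM) in sham and 32100 to 44300 in irradiated libraries, with the receptor Csf1r at 5920 to 9770 and 5130 to 7730 RPM. The neutrophil genes S100a9, Ly6g, Retnlg and Ngp, the T cell genes Cd3d, Cd3e and Cd3g and the neuronal genes Slc17a7 and Gad1 had no read in any of the 12 libraries.

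Among 10132 tested genes, 466 were higher and 407 lower in irradiated than in sham microglia at an adjusted p under 0.05, which is 4.6% and 4.02% of the genes (8.62% in either direction). Rises were larger than falls. The median called rise was 0.83 and the median called fall -0.61 on the log2(RPKM + 1) scale, and 181 rises but 41 falls reached a size of 1. In 224 of the called rises every irradiated library lay above every sham library, and in 175 of the called falls every one lay below (over all tested genes 2.47% and 2.03% of genes separated in this way). The median change over all tested genes was -0.01. With library totals that leave out mitochondrial genes the split was 593 rises and 343 falls, and without irradiated library 2 it was 405 and 327. A pseudocount of 0.1 gave 443 rises and 455 falls, and the RPM scale, without division by gene span, gave 610 and 606. Fitting the 12 libraries alone, without the spread of the other times, gave 298 and 215. RPKM here divides by the whole genomic extent of a gene with its introns, so levels are not compared between genes. Each change given below is the irradiated mean less the sham mean of log2(RPKM + 1), with its standard error after ±, from limma with n = 6 animals a group and p adjusted over all tested genes; the scale understates changes of genes near 0. A call is said to have held where it passed in all 22 other fits to the recomputed values, which change the scaling, filter, pseudocount, block or libraries used. Of the 297 called genes that are named or sit in a list below, 157 held. In bulk samples fewer cells of a type and less RNA per cell cannot be told apart.

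**Figure D1:**
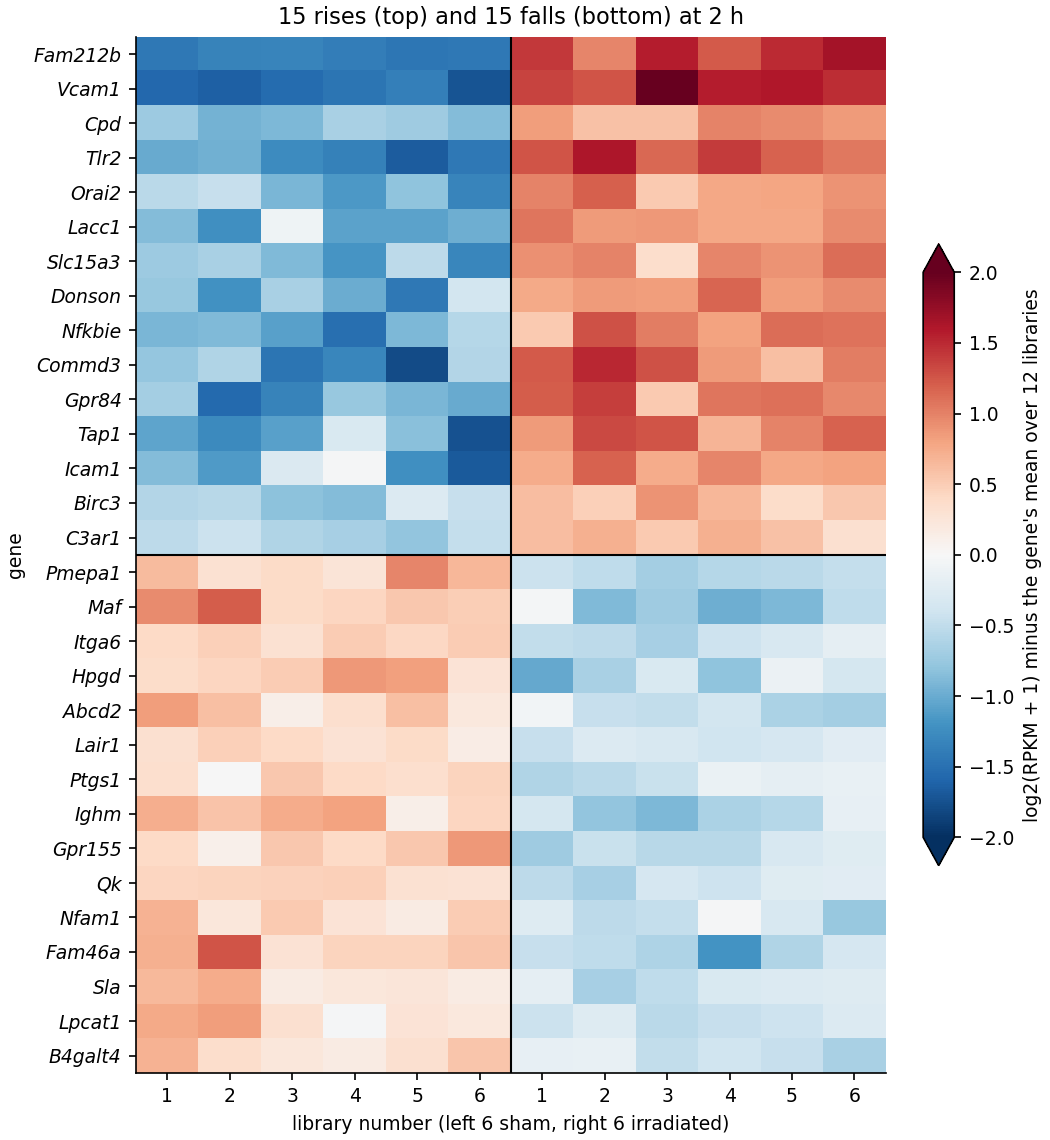
Level of 30 genes in each of the 12 libraries, as log2(RPKM + 1) minus the gene's mean, with the 6 sham libraries left of the line and the 6 irradiated ones right of it. The 15 upper genes are the rises and the 15 lower genes the falls with the smallest adjusted p outside the p53 and cytokine lists. Their direction was set by that choice. Red to blue contrast follows the line between the groups in every row, since in all 30 genes no library of 1 group reaches the other.

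Adhesion molecules and receptors of innate immunity were among the rises named outside the lists of p53 targets and cytokines. Vcam1, the adhesion molecule that binds the integrin VLA-4 (GRCm38 chromosome 3, 116109949 to 116129688), ran from 0.273 (median 0.434) to 0.645 RPKM in sham and from 9.09 (median 11.1) to 16.6 RPKM in irradiated libraries. The groups were far apart, and irradiated library 3 was the highest. The change was 3.10 ± 0.17 (adjusted p = 2.08e-18). Icam1, the ligand of the integrin LFA-1, ran from 5.82 (median 9.95) to 20.5 RPKM in sham and from 35.5 (median 36.8) to 48.6 RPKM in irradiated libraries. No sham library reached an irradiated one, and sham libraries 3 and 4 were the highest of their group. Icam1 changed by 1.74 ± 0.17 (adjusted p = 1.66e-10).

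Tlr2, the receptor for bacterial lipopeptides (chromosome 3, 83836272 to 83841767), ran from 20.1 (median 26.1) to 33.4 RPKM in sham and from 138 (median 155) to 206 RPKM in irradiated libraries. All 6 irradiated libraries lay above the sham group, a change of 2.56 ± 0.16 (adjusted p = 2.43e-16). Its partner Tlr1, which forms a dimer with Tlr2, rose by 1.31 ± 0.16 (adjusted p = 6.96e-08), from a sham range of 6.28 to 11.5 RPKM to 20.6 to 25.6 RPKM. The other Toll-like receptors did not move with them. Of 20 tested Toll-like receptors and adaptors these 2 rose, and Tlr7, a sensor of single-stranded RNA, and Tlr4, the receptor for lipopolysaccharide, fell by 0.78 and 0.23. Neither of these falls held: leaving out irradiated library 2, or sham library 4 or 6, ended each, as did fitting the 12 libraries alone.

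Receptors that draw or activate phagocytes rose as well. Gpr84, a receptor for medium-chain fatty acids, ran from 18.8 (median 28.8) to 35 RPKM in sham and from 82.1 (median 122) to 150.3 RPKM in irradiated libraries, a change of 2.08 ± 0.20 (adjusted p = 6.31e-11). C3ar1, the receptor of the complement fragment C3a, rose by 1.16 ± 0.12 (adjusted p = 6.63e-10) and C5ar1, that of C5a, by 1.38 ± 0.20 (adjusted p = 2.67e-06). P2ry6, the UDP receptor that triggers phagocytosis in microglia, rose by 0.72 ± 0.12 (adjusted p = 2.47e-05), and the chemokine receptor Ccr6 by 0.66. In each of these 5 the irradiated libraries all lay above the sham libraries, and all 5 calls held. They are the 5 rises among 46 tested G protein-coupled receptors and regulators (10.9%), a list in which 12 fell (26.1%), described further down.

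**Figure D2:**
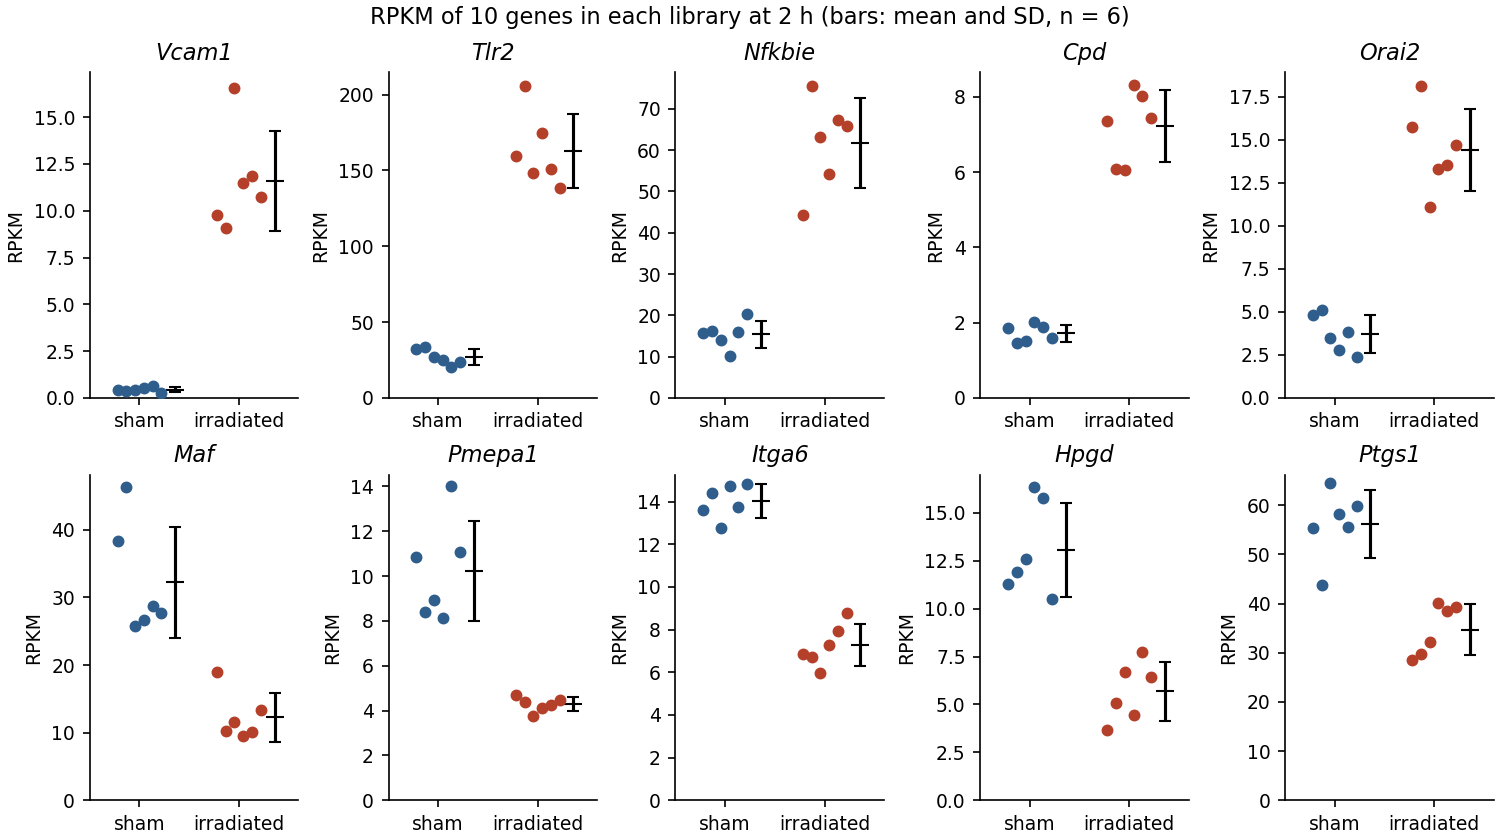
RPKM of 10 genes in each of the 12 libraries at 2 h, with the axis of each panel starting at 0, points for libraries in order of their number, and bars for the mean and SD of 6. In the upper row (rises) and the lower row (falls) no sham point reaches an irradiated point; Maf has its highest irradiated value of 19 RPKM in library 1.

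Genes of the NF-kB pathway rose on both its activating and its inhibiting side. Of 34 tested members, 9 rose (26.5%, against 4.6% of all genes) and 1 fell, and the median change of the 34 was 0.32. With 1 library left out the rises numbered 8 to 10. Among the 5 subunits, Nfkb2 and Relb, which pair in the alternative branch, rose. Nfkb2 ran from 2.45 (median 3.92) to 17.7 RPKM in sham and from 20.9 (median 37.7) to 53.5 RPKM in irradiated libraries (2.61 ± 0.38, adjusted p = 2.12e-06; it overlaps Psd). Relb ran from 0.113 (median 0.841) to 1.32 RPKM in sham and from 4.23 (median 5.19) to 7.07 RPKM in irradiated libraries (1.90, adjusted p = 6.91e-04). Both sets of groups were separate, with 1 sham library of Nfkb2 close to the lowest irradiated one. Nfkb1, the precursor of p50, rose by 0.44, but the call ended without irradiated library 5 or sham library 2 and in the 12 libraries alone (adjusted p = 0.0873).

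On the inhibiting side, Nfkbie, which encodes IkB epsilon (chromosome 17, 45555716 to 45563169), ran from 10.1 (median 15.9) to 20.3 RPKM in sham and from 44.4 (median 64.6) to 75.6 RPKM in irradiated libraries. The groups did not overlap, and the change was 1.95 ± 0.18 (adjusted p = 2.24e-11). Tnip1, a partner of the deubiquitinase A20, rose by 0.67 ± 0.12 (adjusted p = 4.91e-05), and N4bp1, an inhibitor of NF-kB signalling, by 0.56 (adjusted p = 1.04e-04). Among the adaptors and kinases of the pathway, Birc3, a ubiquitin ligase of TNF receptor complexes, rose. It ran from 2.02 (median 2.69) to 3.53 RPKM in sham and from 6.1 (median 7.18) to 9.19 RPKM in irradiated libraries (1.19 ± 0.12, adjusted p = 3.33e-10). Map3k8, the kinase Tpl2, also of that group, rose by 0.80 (adjusted p = 1.50e-04). Otulin, an inhibitor that takes linear ubiquitin chains apart, was the pathway member that fell. It went from 4.37 to 8.05 RPKM in sham to 1.59 to 4.05 RPKM in irradiated libraries (-0.69, adjusted p = 3.98e-03). These 5 rises and the fall of Otulin held, and in each the groups did not overlap.

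Promoters of the 30 rises and falls of the heat map were searched for letters that NF-kB can bind, and 4 are shown here because they hold the searched letters. The windows are RefSeq sequences on GRCm38.p6, from 250 bases before to 50 after the transcript start, of which the first 270 are printed, 5′ to 3′ on the gene's strand. Capitals mark the NF-kB consensus, searched by that name on both strands, in the first 3 and GAGGAAGT, a purine-rich motif that PU.1 binds in macrophages, searched on both strands, in the last. The windows are chr17:45555450-45555719 on the plus strand for Nfkbie, chr3:83841589-83841858 on the minus strand for Tlr2, chr14:77036598-77036867 on the minus strand for Lacc1 and chr2:36230176-36230445 on the plus strand for Ptgs1.
Nfkbie: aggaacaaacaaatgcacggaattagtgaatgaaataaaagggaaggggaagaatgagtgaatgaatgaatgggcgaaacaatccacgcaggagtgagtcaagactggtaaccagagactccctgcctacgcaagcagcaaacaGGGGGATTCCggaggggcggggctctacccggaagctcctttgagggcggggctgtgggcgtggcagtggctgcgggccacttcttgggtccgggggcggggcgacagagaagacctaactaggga
Tlr2: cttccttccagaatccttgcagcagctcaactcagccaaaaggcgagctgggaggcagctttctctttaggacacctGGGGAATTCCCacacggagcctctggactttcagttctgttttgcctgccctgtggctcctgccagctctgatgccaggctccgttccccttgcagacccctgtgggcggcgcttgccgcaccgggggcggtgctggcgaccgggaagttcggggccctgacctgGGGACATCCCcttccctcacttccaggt
Lacc1: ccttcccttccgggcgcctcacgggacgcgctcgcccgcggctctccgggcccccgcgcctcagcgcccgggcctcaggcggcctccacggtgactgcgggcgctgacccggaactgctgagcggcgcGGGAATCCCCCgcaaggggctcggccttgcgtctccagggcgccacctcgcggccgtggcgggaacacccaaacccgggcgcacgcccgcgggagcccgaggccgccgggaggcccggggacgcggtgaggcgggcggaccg
Ptgs1: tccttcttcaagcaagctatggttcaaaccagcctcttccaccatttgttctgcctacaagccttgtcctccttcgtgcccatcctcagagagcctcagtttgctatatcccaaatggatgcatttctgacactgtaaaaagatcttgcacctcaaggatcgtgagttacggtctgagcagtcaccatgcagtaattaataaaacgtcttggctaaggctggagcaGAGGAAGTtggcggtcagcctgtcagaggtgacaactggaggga
The Nfkbie match begins 106 bases before the start, the Tlr2 matches 173 and 8 bases before it, the Lacc1 match 122 and the Ptgs1 match 24 bases before it. In Tlr2 and Lacc1 the capitals include overlapping matches on both strands. Of the 15 named rises, 12 have a window in the table and 5 of these (Cpd, Tlr2, Lacc1, Donson and Nfkbie) hold the NF-kB consensus, and of the 8 named falls with a window 2 do (Qk and Lpcat1) and 1, Ptgs1, holds GAGGAAGT. Over all 27025 genes with a window the NF-kB consensus was present in 5.14%, over the 5658 tested genes with a window in 5.81%, over 324 rises in 11.4% and over 292 falls in 7.53%. For GAGGAAGT the shares were 3.69%, 4.26%, 2.16% and 6.85%. TATAAA, also searched on both strands, was present in 15.7%, 8.5%, 14.2% and 12.7%, and TGACGTCA in 2.03%, 4.05%, 3.4% and 4.11%. These are matches of letters and not measured binding.

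The remaining rises with the smallest adjusted p belong to several classes. Fam212b, also named Inka2, was nearly silent in sham libraries, at 0.027 (median 0.0613) to 0.126 RPKM, and ran from 4.51 (median 6.68) to 7.91 RPKM in irradiated libraries. That gap was 2.78 ± 0.11 (adjusted p = 1.25e-23), the smallest adjusted p among the genes named outside the lists of p53 targets and cytokines. These lists were written by hand, so a gene outside them can still be a p53 target. Cpd, a carboxypeptidase of the trans-Golgi network, ran from 1.45 (median 1.72) to 2 RPKM in sham and from 6.06 (median 7.4) to 8.31 RPKM in irradiated libraries (1.59 ± 0.10, adjusted p = 2.43e-16). Orai2, a pore subunit of store-operated calcium entry, ran from 2.37 (median 3.64) to 5.09 RPKM in sham and from 11.1 (median 14.1) to 18.1 RPKM in irradiated libraries (1.73 ± 0.13, adjusted p = 2.89e-14). In these 3 genes, too, no library of 1 group reached the other.

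Lacc1, an enzyme of macrophage purine metabolism, rose by 1.76 ± 0.15 (adjusted p = 1.71e-12), with sham library 3 at 12.7 RPKM above the other sham libraries and below every irradiated one. Slc15a3, a histidine and peptide transporter of the lysosome, rose by 1.75 ± 0.16 (adjusted p = 8.59e-12). Donson, a protein of the replication fork, rose by 1.80 ± 0.16 (adjusted p = 2.13e-11), and Commd3, a subunit of the endosomal Commander complex, by 2.16 ± 0.21 (adjusted p = 6.31e-11). The values of Lacc1, Slc15a3 and Donson are uncertain, since they share positions with Ccdc122, Tmem132a, and Atp5o and Son, and the labels do not say whether the kit keeps the strand. Over all genes named here, 72 of 196 share positions with another gene with reads, and in 32 cases the neighbour is neither a predicted gene nor a small RNA.

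Solute carriers as a class moved in both directions: of 129 tested, 12 rose (9.3%) and 11 fell (8.53%). The thiamine transporter Slc19a2, which is also in the list of p53 targets, rose most, by 3.44 ± 0.17. It went from 0.292 to 1.43 RPKM in sham to 12.5 to 23.8 RPKM in irradiated libraries. Metal transporters were among both, in that the zinc and manganese importer Slc39a14 rose by 1.05 ± 0.12 (adjusted p = 1.19e-08) and the endosomal iron importer Slc11a2 by 0.95 (adjusted p = 2.78e-07), while Slc40a1, the iron exporter ferroportin, fell by 0.81 ± 0.14 (adjusted p = 3.43e-05). In all 3 the groups were separate. Slc35c2, a nucleotide sugar transporter family member of the Golgi, fell by 1.11, Slc12a9 of the cation-chloride cotransporter family by 0.92, and Slc38a9, the arginine sensor of the lysosome, by 0.53, each with groups that did not overlap. In the 12 libraries alone 7 solute carriers rose and 6 fell. Of 120 tested ubiquitin ligase genes 8 rose and 8 fell (6.67% each, near the 4.6% and 4.02% of all genes), and 4 fell in the 12 libraries alone. Among its rises were Rnf19b (1.45 ± 0.20), Trim7 (1.09 ± 0.12) and Rnf213 (0.68 ± 0.12), and among its falls Klhl6 (-0.94) and Rnf122 (-0.68).

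Antigen presentation rose on the class I side and in co-stimulation. Of 23 tested genes of class I and peptide loading 6 rose and 0 fell, and of 11 of class II and co-stimulation 4 rose and 0 fell, both counts the same whichever library was left out. Tap1, which carries peptides into the endoplasmic reticulum, ran from 4.82 (median 8.29) to 14.9 RPKM in sham and from 30.3 (median 40.4) to 47.8 RPKM in irradiated libraries (2.10 ± 0.20, adjusted p = 8.28e-11; it overlaps Psmb9). B2m, the light chain of class I, ran from 156 (median 208) to 220 RPKM in sham and from 266 (median 316) to 432 RPKM in irradiated libraries (0.72 ± 0.15, adjusted p = 9.06e-04; it overlaps Patl2). Neither gene's groups overlapped, although the change of B2m was much the smaller. The class Ib genes H2-Q6 (2.78 ± 0.43) and H2-Q4 (1.85 ± 0.31) rose too, but near-identical neighbours make their reads hard to assign. Icosl, the ligand of ICOS on T cells, rose by 1.46 ± 0.18 (adjusted p = 2.91e-08) and Cd80, a ligand of CD28, by 0.79 ± 0.12 (adjusted p = 9.59e-06). Cd80 is also in the list of p53 targets. H2-K1, H2-D1, Cd74 and Cd86 passed the test and lost it when the 12 libraries were fitted alone (adjusted p = 0.0751, 0.143, 0.0506 and 0.0567).

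Interferon-stimulated genes moved less firmly. Of 56 tested, 10 rose and 2 fell, yet without irradiated library 2 the rises numbered 5, and in the 12 libraries alone 2. The falls were Stat3 and Samhd1, and irradiated library 2 is among those whose loss ended both calls. Parp14, an ADP-ribosyltransferase, was the rise that held, from 1.51 (median 1.9) to 2.3 RPKM in sham to 3.56 (median 5.22) to 6.72 RPKM in irradiated libraries, a change of 1.06 ± 0.14 (adjusted p = 2.56e-07). Ifit1, a classic interferon target, was at 0.0638 to 0.336 RPKM in sham and 0.38 to 2.32 RPKM in irradiated libraries (0.77 ± 0.19, adjusted p = 3.85e-03, and 0.0527 in the 12 libraries alone).

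Of 33 tested genes of damage signalling and repair 4 rose and 0 fell. Ppm1d, the phosphatase Wip1 that switches the ATM response off and itself a p53 target, ran from 0.358 (median 0.421) to 0.564 RPKM in sham and from 1.2 (median 1.46) to 2.06 RPKM in irradiated libraries (0.82 ± 0.10, adjusted p = 4.59e-08). Msh6, of mismatch repair, rose by 0.99 ± 0.16 (adjusted p = 1.06e-05; it overlaps Fbxo11) and the checkpoint kinase Chek2 by 0.94 ± 0.16 (adjusted p = 2.97e-05). Mdm4, the partner of Mdm2, passed with 0.45 ± 0.13, but not without irradiated library 1 or sham library 5 or 6. Of the 5 tested genes of end joining and recombination 0 passed in limma or in voom, and 1 had an unadjusted p under 0.05.

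The kinase of the G1 phase Cdk6 rose by 0.88 ± 0.09 (adjusted p = 9.13e-10), from 0.947 to 1.58 RPKM in sham to 2.4 to 3.92 RPKM in irradiated libraries with no overlap. Of 17 tested genes of S phase 0 passed, with Pcna, the sliding clamp, at 0.31 ± 0.20 and Mcm7, a helicase subunit, at -0.37 ± 0.37; at an unadjusted p under 0.05 limma gave 1 higher and 2 lower, and voom called 1. Of 28 tested genes of the BCL2 family and apoptosis machinery 6 rose and 2 fell. The fall of Bmf, a BH3-only gene, lost the call without irradiated library 1, 3 or 4 or sham library 3, 5 or 6 and in the 12 libraries alone (adjusted p = 0.151). The apoptosome subunit Apaf1 rose by 1.14 ± 0.09 (adjusted p = 1.90e-13) and the BH3-only genes Pmaip1 and Bbc3 by 3.70 ± 0.29 and 2.40 ± 0.20. These genes and Bax, another of the rises, are also in the list of p53 targets. Bid, a BH3-only protein cut by caspase 8, fell by 0.60 (adjusted p = 1.54e-03), and the anti-apoptotic Bcl2l1 rose by 0.64 (adjusted p = 9.42e-03). Casp4, which encodes mouse caspase 11, was 1 of 11 tested inflammasome genes and the only 1 past the test, at 0.257 to 1.15 RPKM in sham and 2.04 to 3.66 RPKM in irradiated libraries (1.32 ± 0.13, adjusted p = 3.13e-10).

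2 Polycomb genes were the rises among 64 tested chromatin modifiers. Eed, a core subunit of Polycomb repressive complex 2, ran from 1.81 (median 2.03) to 3.87 RPKM in sham and from 4.64 (median 5.38) to 6.14 RPKM in irradiated libraries (0.92 ± 0.14, adjusted p = 7.75e-06). Cbx7, a chromodomain subunit of complex 1, rose by 1.01 ± 0.19 (adjusted p = 1.92e-04; it overlaps Apobec3). The groups were separate in both. Setdb1, a histone H3 lysine methyltransferase, passed as the 1 fall (-0.53 ± 0.15) and lost the call in the 12 libraries alone (adjusted p = 0.0579), and the shares of 3.12% and 1.56% lie under those of all genes.

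Among the falls, transcription factors of the microglial program stood out in number. Of 32 tested, 9 fell (28.1%, against 4.02% of all genes) and 4 rose (12.5%, against 4.6%). There were 8 to 11 falls when any 1 library was left out and 6 in the 12 libraries alone. The 4.02% includes short genes with few reads, and falls made up 12.7% of the longest genes (48.9 to 725 kb). Mef2a, Mef2c, Fli1, Nr3c1 and Etv5 (142, 163, 121, 80.8 and 58.4 kb), all falls of this list, are among those. Maf (24.9 kb) is not. A share among genes of like span and read number was not computed. Maf, a basic leucine zipper factor of macrophages (chromosome 8, 115682942 to 115707794), ran from 25.8 (median 28.2) to 46.3 RPKM in sham and from 9.45 (median 10.8) to 19 RPKM in irradiated libraries. No irradiated library reached the sham range, and sham libraries 1 and 2 and irradiated library 1 were the high ones of their groups. The change was -1.33 ± 0.14 (adjusted p = 5.29e-10). Cebpa, a factor of myeloid identity, ran from 90.5 (median 138) to 182 RPKM in sham and from 48.3 (median 75.5) to 82.4 RPKM in irradiated libraries (-0.94 ± 0.16, adjusted p = 4.81e-05). Ikzf1, the zinc finger factor Ikaros, fell by 0.74 ± 0.13 (adjusted p = 9.42e-05), from 6.93 to 10.6 RPKM in sham to 4.02 to 6.57 RPKM in irradiated libraries. Those groups, too, were separate.

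Mef2c, a MADS-box factor of the homeostatic state, fell by 0.40 (adjusted p = 2.10e-03), with 4.81 to 6.42 RPKM in sham and 3.56 to 4.05 RPKM in irradiated libraries. Its relative Mef2a fell by 0.37, the glucocorticoid receptor Nr3c1 by 0.36 and Sall1, a factor specific to microglia within the brain, by 0.70 ± 0.18, and these 3 lost the call in the 12 libraries alone (adjusted p = 0.054, 0.0755 and 0.0524). The other 2 falls were Fli1 and Etv5 of the ETS family, of which Fli1 lost the call without sham library 1 or 2 and Etv5 without irradiated library 2 or sham library 3. In the opposite direction Elk3, an ETS factor of serum response elements, rose by 0.57 ± 0.09 (adjusted p = 2.09e-05), from 2.34 to 2.89 RPKM in sham to 3.95 to 4.74 RPKM in irradiated libraries, and the circadian repressor Bhlhe41 by 0.61 ± 0.11 (adjusted p = 1.66e-04).

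**Figure D3:**
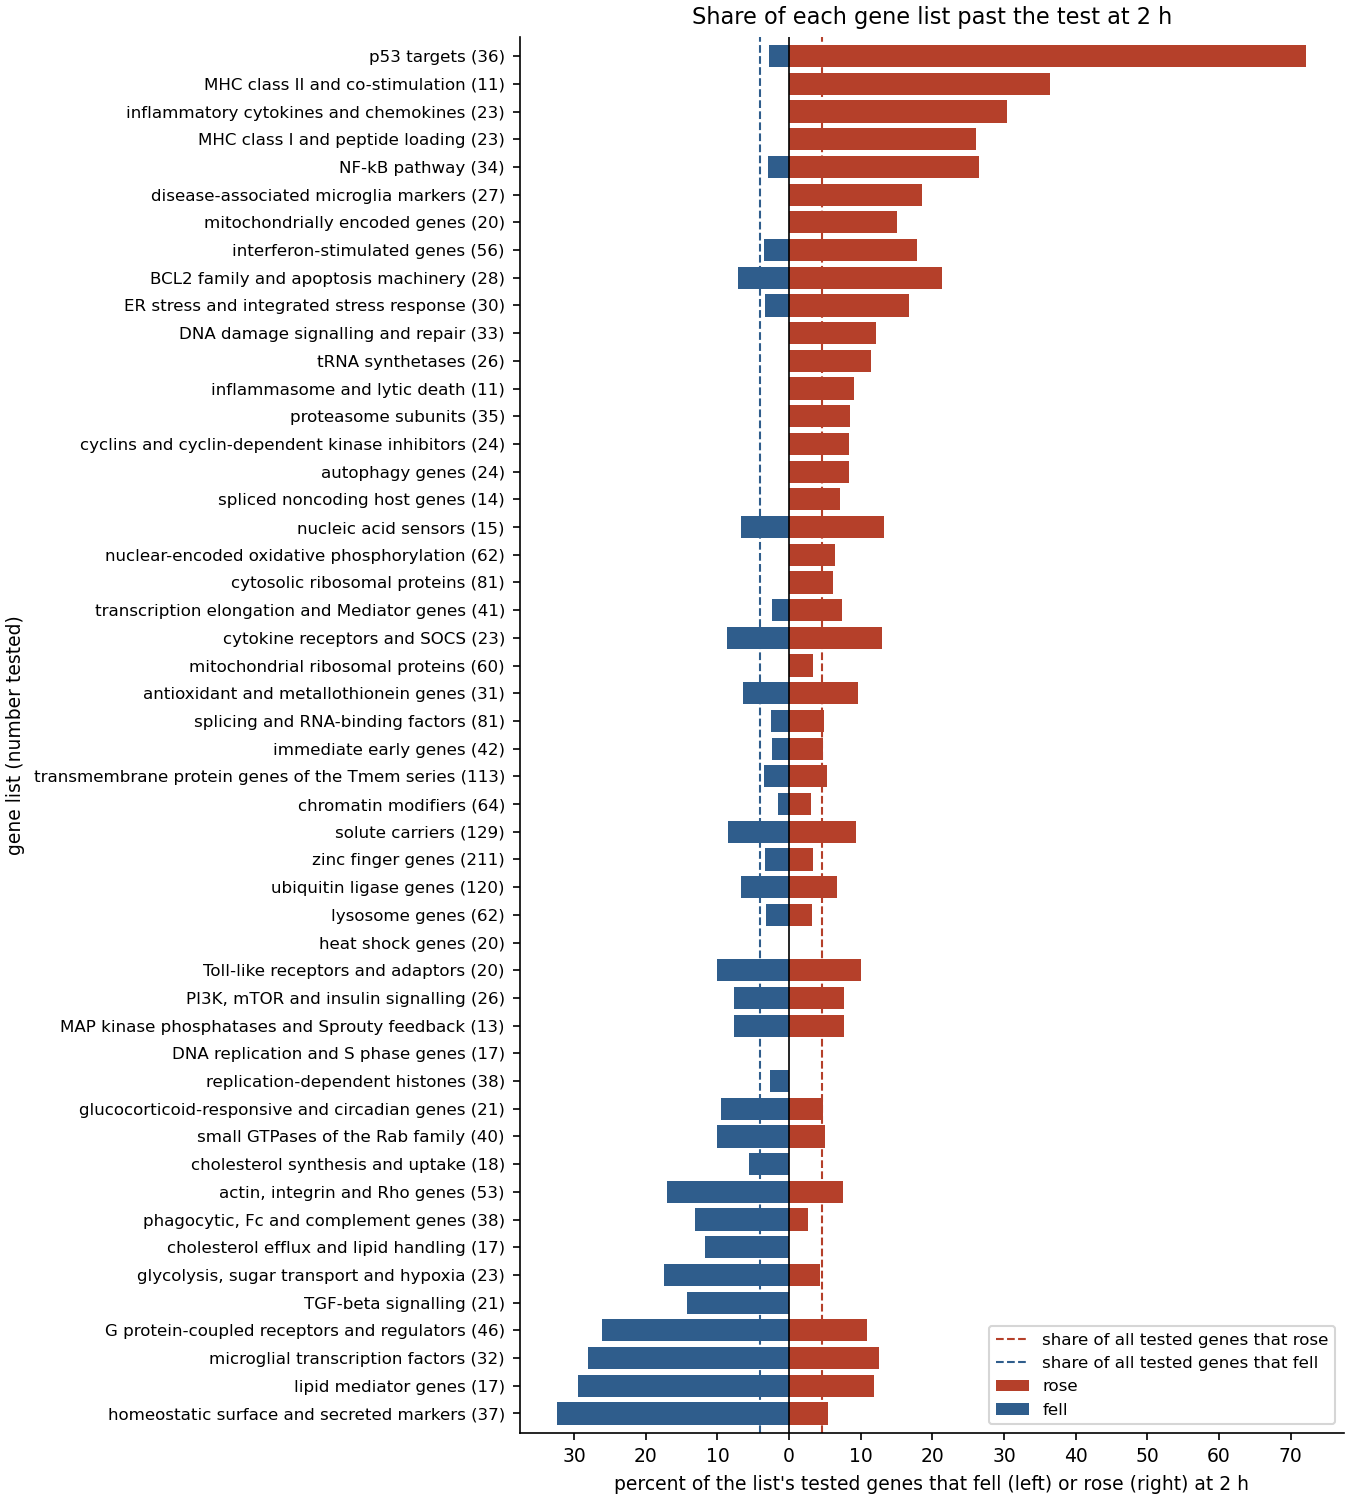
Share of the tested genes of each list that rose (right) or fell (left) at 2 h, for lists with at least 10 tested genes; the number tested stands beside each name and the dashed lines mark the shares over all tested genes, 4.6% and 4.02%. p53 targets have the highest share of rises (72.2%) and homeostatic microglial genes the highest share of falls (32.4%); long lists such as zinc finger genes lie near both lines.

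Of 37 tested markers of homeostatic microglia, 12 fell (32.4%) and 2 rose, and the median change was -0.31. Most encode surface or secreted proteins, but the 12 include the transcription factor Sall1, counted above as well, and the cytosolic enzyme Hpgd. P2ry12, the ADP receptor that steers microglial processes, ran from 86.5 (median 90.5) to 121 RPKM in sham and from 58.1 (median 62.6) to 68.1 RPKM in irradiated libraries (-0.60 ± 0.13, adjusted p = 1.01e-03; it lies within Med12l). Gpr34, a receptor for lysophosphatidylserine, ran from 224 (median 258) to 320 RPKM in sham and from 166 (median 172) to 208 RPKM in irradiated libraries (-0.57, adjusted p = 6.05e-04). Vsir, the checkpoint receptor VISTA, fell by 0.75 ± 0.12 (adjusted p = 2.20e-05; it lies within Cdh23), and Itgb5, the integrin subunit beta 5, by 0.76 (adjusted p = 2.89e-03). In all 4 the irradiated libraries lay below every sham library. Golm1, Adgrg1 and the orphan receptor Gpr165 fell by 0.63, 0.75 and 1.21 with groups that overlapped. Not every marker moved, since 8 of the 10 genes that were used to check the cell type did not pass.

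The falls among G protein-coupled receptors reached beyond these. Gpr155, a lysosomal membrane protein that senses cholesterol, ran from 3.66 (median 5.01) to 6.92 RPKM in sham and from 1.64 (median 2.07) to 2.66 RPKM in irradiated libraries (-0.95 ± 0.13, adjusted p = 1.04e-06). Cysltr1, a receptor for cysteinyl leukotrienes, fell by 0.75 (adjusted p = 1.84e-05), from 1.65 to 3.1 RPKM in sham to 0.802 to 1.12 RPKM in irradiated libraries. Neither gene's groups overlapped. Of the 12 falls, 6 held, and of the 12 tested orphan and adhesion receptors 5 fell and 1, Gpr84, rose.

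Genes of lipid mediators changed on both sides of prostaglandin turnover. Of 17 tested, 2 rose and 5 fell (11.8% and 29.4%, against 4.6% and 4.02% of all genes). In the 12 libraries alone 2 rose and 2 fell. Hpgd, which degrades prostaglandins (chromosome 8, 56294585 to 56321043), ran from 10.5 (median 12.2) to 16.4 RPKM in sham and from 3.69 (median 5.74) to 7.76 RPKM in irradiated libraries, a change of -1.09 ± 0.14 (adjusted p = 2.80e-07). Ptgs1, the constitutive cyclooxygenase 1, whose promoter is printed above, ran from 43.7 (median 56.9) to 64.5 RPKM in sham and from 28.6 (median 35.3) to 40 RPKM in irradiated libraries (-0.68 ± 0.10, adjusted p = 9.17e-07). Every irradiated library was below every sham library in both. Ptgs2, the inducible cyclooxygenase 2, went the other way at a low level, from 0 (median 0.394) to 1.11 RPKM in sham to 1.19 (median 2.49) to 3.21 RPKM in irradiated libraries (1.20 ± 0.15, adjusted p = 6.45e-08). Pla2g4a, the cytosolic phospholipase A2 that frees arachidonic acid, rose by 0.78 ± 0.09 (adjusted p = 1.55e-08). Hpgds, the hematopoietic prostaglandin D synthase, fell by 0.63, and lost the call in the 12 libraries alone (adjusted p = 0.074). So did Alox5ap and Mgll, also among the falls (adjusted p = 0.164 and 0.141 there).

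Of 17 tested genes of cholesterol efflux and lipid handling 2 fell, Abcg1 and Lipa, and 0 rose. Abcd2 and Lpcat1, which are in no such list, are leading falls by adjusted p. Abcd2, which brings very long chain fatty acids into peroxisomes, ran from 4.35 (median 5.85) to 7.83 RPKM in sham and from 2.07 (median 2.54) to 3.76 RPKM in irradiated libraries (-0.90 ± 0.12, adjusted p = 7.47e-07). Abcg1, an exporter of cholesterol, fell by 0.97 ± 0.19 (adjusted p = 3.20e-04), from 3.1 to 5.87 RPKM in sham to 1.01 to 2.63 RPKM in irradiated libraries. Lpcat1, a lysophosphatidylcholine acyltransferase, fell by 0.79 ± 0.12 (adjusted p = 7.34e-06). In these 3 the groups were separate. Of 18 tested genes of cholesterol synthesis and uptake 1 fell and 0 rose. Of 23 tested genes of glycolysis, sugar transport and hypoxia 4 fell and 1 rose. Pdk1, the kinase that holds pyruvate back from mitochondria, fell by 0.68 ± 0.16 (adjusted p = 2.37e-03) with separate groups, and was the call of this list that held.

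Adhesion and actin genes moved in both directions. Of 53 tested, 9 fell and 4 rose (without sham library 4, 5 fell, and in the 12 libraries alone 4). Itga6, the laminin receptor subunit alpha 6, ran from 12.8 (median 14.1) to 14.8 RPKM in sham and from 5.98 (median 7.07) to 8.77 RPKM in irradiated libraries, a change of -0.87 ± 0.09 (adjusted p = 1.07e-09). Coro1a, a coronin of the leukocyte actin cortex, ran from 111 (median 127) to 217 RPKM in sham and from 38.1 (median 73.8) to 77.7 RPKM in irradiated libraries (-1.10 ± 0.18, adjusted p = 1.66e-05; it overlaps Bola2). In both the groups were separate. Wasf2, which activates the Arp2/3 complex, fell by 0.74 (adjusted p = 1.00e-04), whereas Arpc2, a subunit of that complex, rose by 0.62 (adjusted p = 1.24e-04), and Marcksl1, a substrate of protein kinase C at the membrane, rose by 1.69 (adjusted p = 1.84e-05).

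TGF-beta signalling had its strongest fall in a feedback gene. Pmepa1, which is induced by TGF-beta and restrains Smad signalling (chromosome 2, 173224458 to 173276533), ran from 8.11 (median 9.9) to 14 RPKM in sham and from 3.77 (median 4.3) to 4.69 RPKM in irradiated libraries. The irradiated libraries were close together and all below the sham group, a change of -1.07 ± 0.11 (adjusted p = 3.11e-10). Of 21 tested genes 3 fell and 0 rose. The other 2, Smad1 and Ski, lost the call under several fits, the 12 libraries alone among them, and 0 of the 8 tested receptors and ligands passed in limma or voom, with 2 lower at an unadjusted p under 0.05.

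Genes of immune receptor signalling were among the falls. Lair1, an inhibitory collagen receptor, ran from 12.5 (median 14.5) to 15.9 RPKM in sham and from 7.85 (median 8.69) to 9.41 RPKM in irradiated libraries (-0.67 ± 0.09, adjusted p = 7.70e-07). Nfam1, an activating receptor of this kind, fell by 0.79 ± 0.12 (adjusted p = 2.67e-06), and Sla, the Src-like adaptor, by 0.73 ± 0.11 (adjusted p = 6.66e-06; it lies within Tg). Clec4a2, a C-type lectin receptor, fell by 0.89 ± 0.17 (adjusted p = 2.22e-04), and Pik3cg, the phosphoinositide kinase downstream of G proteins, by 0.50 ± 0.10 (adjusted p = 4.16e-04). This set was put together after the values were seen, and no test over it was made. Of 38 tested phagocytic, Fc receptor and complement genes 5 fell and 1 rose, and the falls numbered 2 without irradiated library 2 and 3 without sham library 2.

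Qk, the RNA-binding protein Quaking, ran from 9.03 (median 10) to 10.3 RPKM in sham and from 4.16 (median 5.3) to 5.98 RPKM in irradiated libraries (-0.80 ± 0.12, adjusted p = 2.12e-06). Fam46a, also named Tent5a, a poly(A) polymerase, fell by 1.24 ± 0.18 (adjusted p = 2.68e-06), from 35.2 to 69.5 RPKM in sham to 11.9 to 22.5 RPKM in irradiated libraries. B4galt4, a Golgi galactosyltransferase, fell by 0.77 ± 0.12 (adjusted p = 8.14e-06). The groups of these 3 did not overlap. Ighm, the immunoglobulin mu heavy chain, ran from 103 (median 150) to 167 RPKM in sham and from 50.5 (median 62.5) to 84.3 RPKM in irradiated libraries (-1.13 ± 0.16, adjusted p = 9.86e-07). Of the 14 lymphocyte markers 8 had no read in any of the 12 libraries, 2 were tested and both fell (Ighm and the B cell receptor gene Cd79b, which lost the call without any of several single libraries), and the summed level of the list went from 446 to 714 RPM in sham to 223 to 368 RPM in irradiated libraries, of which Ighm gave 428 to 698 and 211 to 352. The part of lymphocytes in this fall was not tested.

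Stress and housekeeping classes moved little. Nfe2l2, the master factor of antioxidant genes, rose by 0.59 ± 0.11 (adjusted p = 2.82e-04), from 15.3 to 23 RPKM in sham to 25.4 to 29.6 RPKM in irradiated libraries, and Txnrd1, a thioredoxin reductase, by 0.76 ± 0.13 (adjusted p = 2.88e-05), though 26 of 31 antioxidant and metallothionein genes did not pass. Of 20 heat shock genes 0 passed, with Hsp90ab1 at -0.23 ± 0.14; limma gave 1 higher and 1 lower at an unadjusted p under 0.05, and voom called 0. Of 30 genes of ER stress 5 rose and 1 fell, and in the 12 libraries alone 0 rose (Herpud1, of ER-associated degradation, 1.16 ± 0.19 and adjusted p = 0.0514 there). Among 81 tested cytosolic ribosomal protein genes 5 rose and 0 fell (6.17% and 0%), led by Rps27l (1.98 ± 0.22) and Rps19 (1.70 ± 0.21). Many processed copies of such genes make the counts uncertain, and Rps27l is also in the list of p53 targets. Of 62 nuclear genes of oxidative phosphorylation 4 rose and 0 fell, of 35 proteasome genes 3 and 0, of 62 lysosomal genes 2 and 2, and of 211 zinc finger genes 7 and 7, beside 4.6% and 4.02% over all genes. The rises in oxidative phosphorylation numbered 2 without irradiated library 2 or 4 or sham library 3, and the zinc finger falls 4 without sham library 2. The mitochondrially encoded mt-Rnr2 itself passed at 0.91 ± 0.29 (adjusted p = 0.0432) but lost the call without any of 8 single libraries (irradiated 1 to 5 and sham 1 to 3).

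Long genes fell more often than short ones. When the tested genes were cut into 10 bins by span, falls made up 0.788% of the shortest bin (0.048 to 0.363 kb) and 12.7% of the longest (48.9 to 725 kb), while rises made up 1.58% of the shortest and lay between 5.23% and 6.81% in bins 5 to 10. The median change in the longest bin was -0.07. The median span was 8.14 kb over all tested genes, 14.9 kb over rises and 29.7 kb over falls. Read number moves with span on this scale, since the median count per library went from 0 in the shortest bin to 221 in the longest. On the RPM scale, without division by span, with genes chosen at 5 RPM, the median counts lay between 8.5 and 78.2, and falls again went from 2.53% (0.057 to 3.29 kb) to 11.4% (107 to 1690 kb) against 4.69% to 6.78% for rises. The bins share libraries and genes of a bin are not replicates, so these shares are a description with no test. The part of read number was not tested. The list shares of this report are set against all tested genes, not against genes of like span or read number.

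**Figure D4:**
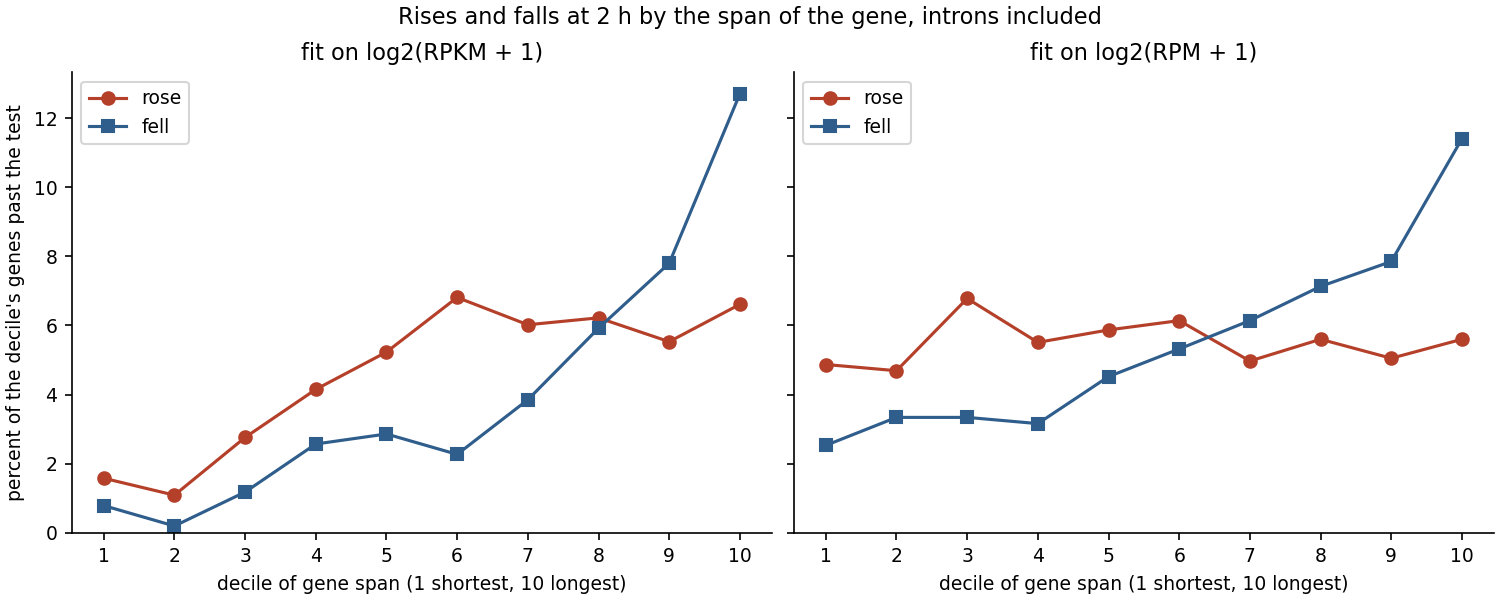
Percent of genes that rose or fell at 2 h in each of 10 bins of gene span, introns included, left for the fit on log2(RPKM + 1) with 10132 genes and right for log2(RPM + 1). Falls climb from the short to the long end in both panels and reach 12.7% and 11.4%, and rises stay between 4.97% and 6.81% from the fifth bin on.

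Besides Ighm and Cd79b, described above, 1 marker of another cell type passed the test. Slc1a3, the glutamate transporter GLAST that marks astrocytes, ran from 2.7 (median 3.72) to 5.45 RPKM in sham and from 8.28 (median 9.06) to 12.4 RPKM in irradiated libraries (1.12 ± 0.13, adjusted p = 2.70e-08). The groups were separate. Of the 10 astrocyte markers 3 were tested and 1 rose, Aldh1l1 had no read in the 12 libraries, and the list summed to 251 to 450 RPM in sham and 661 to 966 RPM in irradiated libraries, of which Slc1a3 gave 207 to 418 and 634 to 947. Perivascular macrophage markers summed to 432 to 792 and 564 to 883 RPM, oligodendrocyte markers to 77.3 to 338 and 73.3 to 142, endothelial and mural markers to 43.7 to 263 and 53.1 to 164, and neuronal markers to 28 to 42 and 27.1 to 62.3. Neural progenitor markers lay at 5.71 to 45 and 6.26 to 69.3 RPM, erythrocyte genes at 12.2 to 73.6 and 41.8 to 96, and monocyte and neutrophil genes at 2.61 to 33.2 and 5.88 to 17.4, and most of these genes were too low to be tested: 0 of 12 neuronal, 1 of 9 progenitor, 2 of 12 monocyte and neutrophil, 2 of 12 endothelial and mural, 4 of 9 perivascular, 4 of 11 oligodendrocyte and 4 of 5 erythrocyte genes were. Of those tested 0 passed in limma or voom, and 1, an oligodendrocyte gene, was lower at an unadjusted p under 0.05. The part of other cells in the results was not tested.

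Part of the 2 h response differed from that of the later times. The effect at 2 h was set against the mean effect at 6 h, 1 day and 1 week in the same fit, and it differed in 465 of the 10132 genes (4.59%), being higher in 206 and lower in 259. The 2 h libraries enter both tests, so the overlap with the 2 h calls carries no separate weight: 176 of the 466 rises had a higher and 139 of the 407 falls a lower effect at 2 h than later. Vcam1 differed most firmly, by 2.97 (adjusted p = 1.65e-14), with changes of 3.10 ± 0.17 at 2 h, 0.57 at 6 h, -0.20 at 1 day and 0.02 at 1 week. Nfkbie, at 1.95 at 2 h, stood at -0.37, -0.25 and -0.01 later (difference 2.16, adjusted p = 4.04e-10). Tlr2 went from 2.56 to 0.64, 0.49 and 0.31, and Orai2 from 1.73 to 0.66, 0.12 and 0.11. Cpd was high at 2 h and again at 1 day, with 1.59, 0.06, 1.01 and 0.00, where the last is the 1 week value.

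Among the falls that differed, Maf stood at -1.33 at 2 h and 0.16, -0.18 and -0.15 later (difference -1.28, adjusted p = 2.0e-07), and Pmepa1 at -1.07 and then -0.42, 0.03 and -0.20 (difference -0.87, adjusted p = 4.7e-06). Coro1a went from -1.10 to 0.53, 0.29 and -0.17, and Tmem86a, a lysoplasmalogenase of the ER membrane, from -0.75, a call lost in the 12 libraries alone (adjusted p = 0.0518), to 0.81, 0.33 and -0.06. Tspan14, a tetraspanin that guides the protease ADAM10, went from -0.51 to 0.15, 0.17 and 0.15. Other leading genes had no such difference past the threshold: C3ar1 stood at 1.16, 1.37, 1.48 and 0.09 (difference 0.18, adjusted p = 0.537) and Hpgd at -1.09, -1.38, -0.96 and -0.17 (difference -0.25, adjusted p = 0.469). With 6 h left out of the mean the difference was called in 353 genes, with the 6 h libraries also out of the fit in 326.

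**Figure D5:**
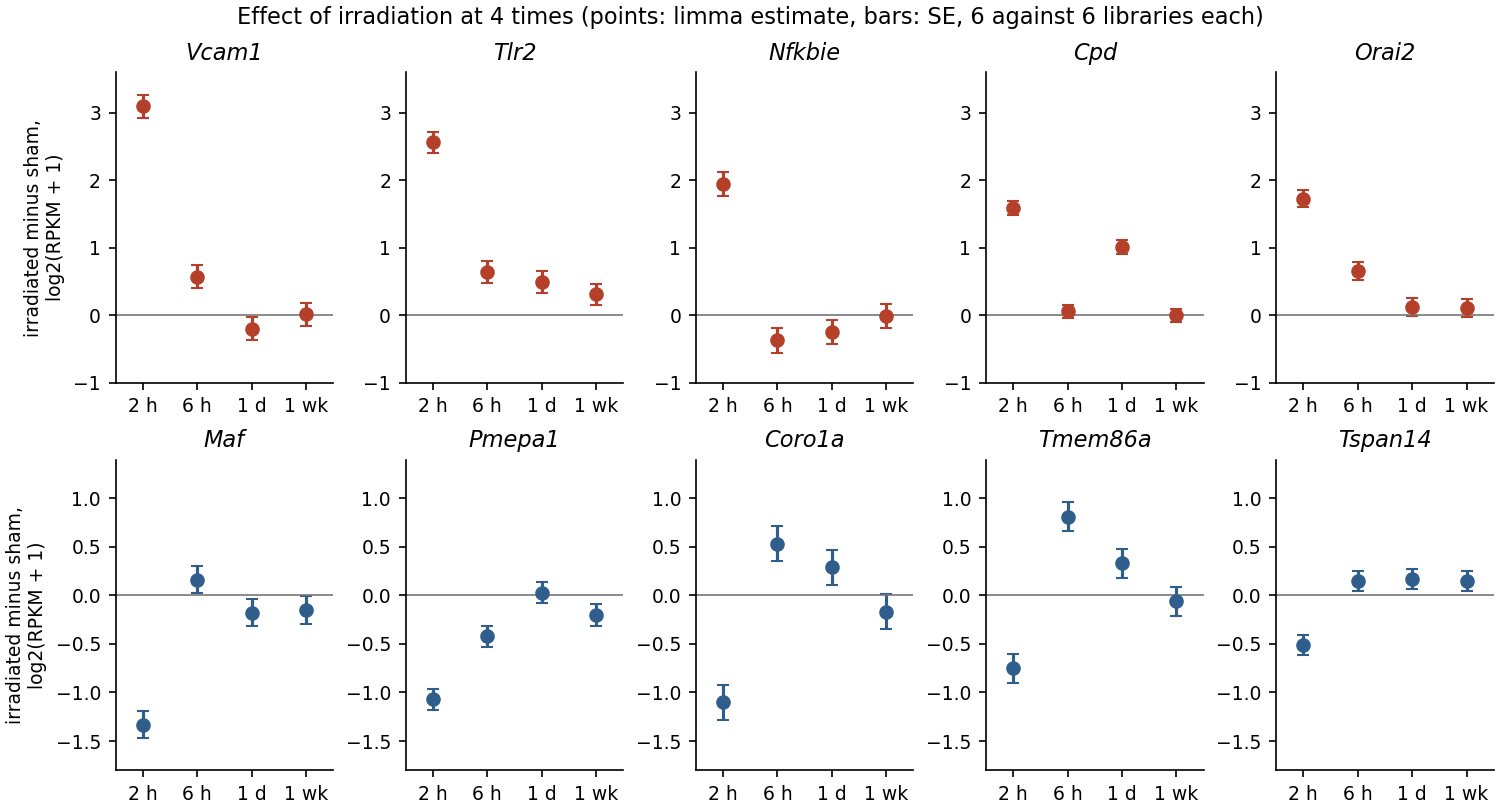
Effect of irradiation on 10 genes at 2 h, 6 h, 1 day and 1 week, as limma's estimate of the irradiated less the sham mean of log2(RPKM + 1), with its SE, from 6 against 6 libraries at each time. The 10 genes are those with the smallest adjusted p for a higher (upper row) or lower (lower row) effect at 2 h than later. They were taken outside the p53 and cytokine lists, from genes with a mean of at least 5 RPKM in 1 group. Predicted, small RNA and mitochondrial genes were left out. The 2 h points of the upper row lie between 1.59 and 3.10 and those of the lower row between -1.33 and -0.51.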

How the data were processed

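Bulk RNA-seq libraries of sorted hippocampal microglia were read as deposited by the authors, as RPKM values per gene (48526 genes, 48 libraries). Per the submitters' processing notes, STAR 2.6.1d and featureCounts 1.5.1 were used with GRCm38 (mm10), after bcl2fastq 2.20.0 and FastQC 0.11.8; the annotation and strand setting are not given in the sources used here. In the deposited RPKM table the gene length is the span from start to end and only 2.05% of the values above 0 are divided by their own library's total. Whole reads were therefore recovered (100% of 719081 values, tolerance 0.001 reads; 95 genes had more than 1 solution), and RPKM were recomputed with each library's own total. Depth is thus the recovered reads per library, which at 2 h ran from 395761 to 2551975.

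Genes with at least 1 RPKM in at least 6 libraries (10132) were tested on log2(RPKM + 1), pseudocount 1, with limma 3.58.1 (trend and robust) in R 4.3.3 on 8 group means of all 48 libraries, with 40 residual degrees of freedom. Calls need a Benjamini-Hochberg adjusted p under 0.05. The irradiated and sham libraries of 2 h were compared, and the 2 h effect was set against the mean effect at 6 h, 1 day and 1 week. Each library is 1 animal by the design text; nothing states separate sorting days. The members and lists were chosen with earlier results of these data known. Named genes are the 15 rises and 15 falls with the smallest adjusted p outside p53 targets and cytokines. They have a mean of at least 5 RPKM in 1 group, and predicted, small RNA and mitochondrial genes were left out. With them are named 5 genes per direction for the difference, under the same exclusions. Up to 4 called members of each list (or 2 by level where 0 passed) were added. The text adds some called list members outside these rules, which were chosen after their values were seen. The 63 lists comprise 49 written by hand and 14 made from symbols. The fit was tested on simulated data. Alternatives were median-of-ratios scaling, totals without mitochondrial genes, reads per 1000000 without span, voom on the recovered reads, the values as deposited, no filter, a pseudocount of 0.1, the 12 libraries alone, a replicate block and each library left out; leaving out the 6 h libraries, or the libraries under 1000000 reads, was added after seeing the data.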

Additional observations from a re-analysis of the deposited data

Results flagged for a closer look

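In 29 of 628 groups of 6 libraries the highest or lowest library lay far from the nearest other one. Each was 1 group and 1 gene or depth measure at a time. Chance alone gives this in about 1 group in 20, and the count is near that share. The entries below describe single values and are not results about a gene or library. In sham libraries, library 3 was far above the others for Lacc1 (12.7 RPKM), Ndufa13 (5.54), Slc39a14 (0.868) and Txn1 (1.57) and far below for Pik3cg (9.21). Sham library 5 was low for Ccng1 (8.38 RPKM) and high for Rpl34 (22.4). Library 1 was high for Bcl2l1 (2.04 RPKM), library 4 for Otulin (8.05) and library 6 for Gtse1 (0.39). The most deeply sequenced sham library stood apart in reads on genes, at 2277026.

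In irradiated libraries, library 1 was high for Mdm4 (6.51 RPKM), Pidd1 (4.99) and Slc25a37 (2.31) and low for Laptm5 (146) and Rpl15 (2.03). Library 2, the shallow one, was high for Med21 (18.2 RPKM) and Trim11 (8.7) and low for Zfp626 (0.161). Library 3 was low for Slc15a3 (9.17 RPKM), Lgmn (56.7) and Coro1a (38.1), and library 4 for Fam46a (11.9) and Cebpa (48.3). Library 5 was high for Mrpl30 (4.72 RPKM) and Slc7a5 (6.53), and library 6 for Slc1a3 (12.4), Rab35 (15) and Rnf144b (1.78).

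The effect at 2 h differed from the mean effect at 6 h, 1 day and 1 week by the limma contrast itself in 465 genes. Among those named, the difference on the log2(RPKM + 1) scale was 2.97 for Vcam1, 2.16 for Nfkbie, 2.08 for Tlr2, 1.43 for Orai2 and 1.24 for Cpd. It was -1.31 for Coro1a, -1.28 for Maf, -1.11 for Tmem86a, -0.87 for Pmepa1 and -0.67 for Tspan14.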

How the results depend on the processing

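The counts of 873 called genes and 465 differences moved by over 1.5 times under 2 settings. The values as deposited, mostly divided by totals of other libraries, gave 52 calls (51 rises, 1 fall) and 10 differences. The 12 libraries alone, with fewer samples behind the spread, gave 513 (298 rises, 215 falls). Totals without mitochondrial genes gave 936, of which 63.4% were rises against 53.4%. A pseudocount of 0.1 gave 898 (443 rises, 455 falls) and the RPM scale 1216 (610 rises, 606 falls). With 1 library left out the calls ranged from 732 to 853, rises from 405 to 460, falls from 327 to 421 and differences from 341 to 459. Of 312 genes named or called in a list 297 were called; 204 of these passed in all 12 fits that leave out 1 library, 176 in the 12 libraries alone and 157 in all 22 fits to recomputed values. No called gene changed sign; among 15 that were not called Hspa8, Plac8 and Itm2a, at most 0.03 in size, did.

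Nothing in the labels says that the shared replicate numbers pair the animals. Same-numbered sham and irradiated libraries deviated together with correlations of 0.14, 0.05, 0.04, 0.02, 0.13 and 0.07. Not all were over 0.1, and not every library correlated best with its own number. Sham library 2, for example, stood at 0.17 with irradiated library 1 and at -0.15 with irradiated library 5. Such correlations cannot decide whether animals were paired, and a batch shared by number was not tested. With the replicate block 760 genes were called (408 rises, 352 falls) and 362 differed from the other times. Depth limits what can be seen most in irradiated library 2, and genes of low RPKM or long span are tested on a scale that understates their change.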
